A study of Mus musculus with 244 samples.

Results

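The comparison concerned ovarian follicles caught between the primordial and the primary stage, here called transitioning follicles. Oocytes taken from such follicles were set against somatic cells taken from follicles of the same stage, and both were chosen by their sample labels and by the library plate that the deposited cell metadata give. Library plate 4 held 15 transitioning oocytes and 16 transitioning somatic cells, which is 31 of the 244 cells of the series and every cell of that plate. The ovaries came from mice of the outbred CD-1 strain on postnatal day 6, and no genotype or treatment differed between the groups. Follicles were freed with liberase and DNase I, oocytes and somatic cells were parted with Accutase, and each cell became 1 SMART-Seq2 library, a method that reads polyadenylated RNA along the whole transcript, without molecular identifiers. The transitioning follicles were recognised by a mixed layer of flat and cuboidal somatic cells. Ovaries of several animals were pooled for an isolation and no animal is named for a cell, so each cell type counted as 1 sample, and no p-value is given. The 95% intervals below cover counting error only, and such reads are not independent molecules.

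The metadata also carry a plate code of unstated meaning with 4 values on this plate. All 16 somatic cells and 5 of the oocytes carried the code called the first here, and the remaining oocytes carried the second (3 oocytes), the third (2 oocytes) and the fourth (5 oocytes). For some lists and genes the value within the first code is therefore given beside the pooled one. All other values pool the oocytes of the 4 codes. Total counts per cell were 7665, 229341 and 629560 in the lowest, median and highest oocyte, against 104038, 181855 and 279591 in the somatic cells. The shallowest oocyte, of the third code, stood apart from the rest on the first and the second principal component of log2(CPM + 1), and 3 oocytes had fewer than 50000 counts. Reads on ribosomal RNA made up 1.18 to 18.8% of the reads of an oocyte and 20.8 to 36.3% of those of a somatic cell, and reads on introns 2.81 to 8.15% in oocytes and 4.09 to 19.2% in somatic cells. The part of these differences in the results was not tested.

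**Figure D1:**
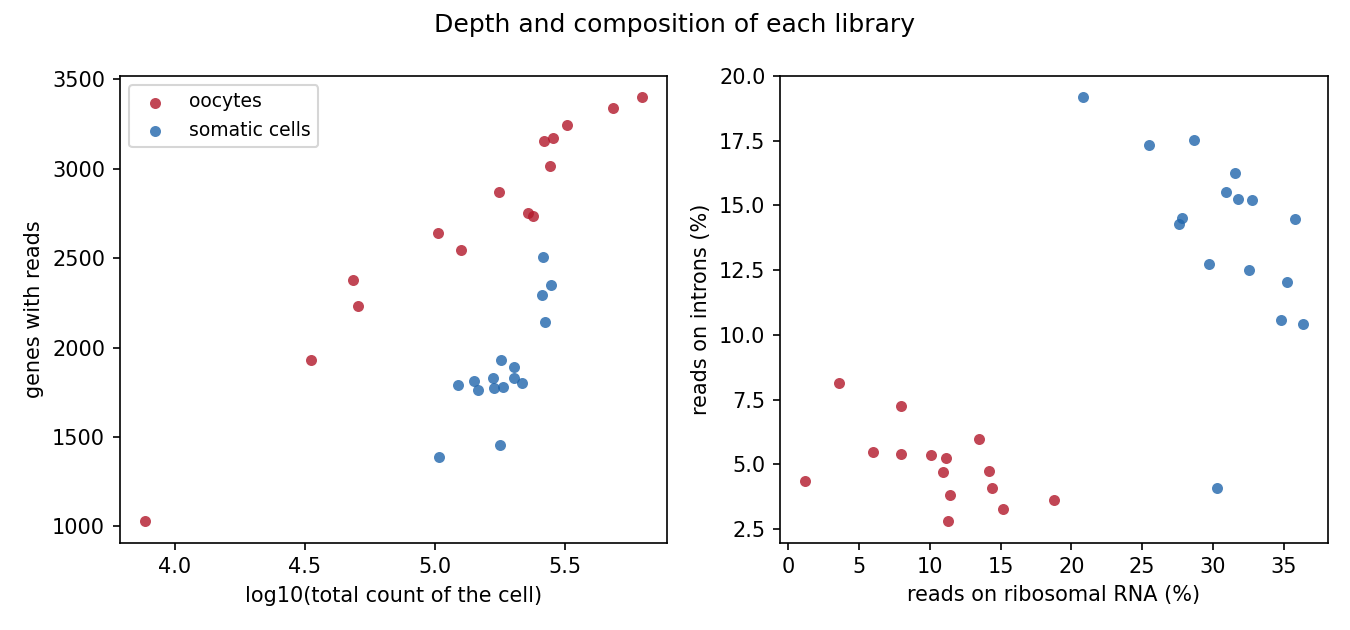
Genes with reads against the log10 of the total count (left), and percent of reads on introns against percent on ribosomal RNA (right), for 15 oocytes (red) and 16 somatic cells (blue). The oocytes had fewer reads on ribosomal RNA than any somatic cell, and 1 somatic cell at 4.09% lay within the oocyte range for introns.

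As background, a primordial follicle holds an oocyte arrested in meiotic prophase inside a shell of flat pregranulosa cells, and leaves its resting state when those cells become cuboidal and the oocyte begins to grow. The oocyte then stores RNA and protein for the embryo, makes an egg coat and sends growth factors of the TGF-beta family to the somatic cells. The granulosa cells in turn send Kit ligand to the oocyte, make inhibin and anti-Müllerian hormone, and stay joined to it by adherens and gap junctions. Levels are given in CPM, a gene's counts scaled to a total of 1000000 per cell over the genes with values on the plate, so they say nothing of the amount of RNA per cell. They are not divided by gene length and serve to compare cells, not genes.

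Among the markers of the cell types, the oocyte genes separated the labelled groups in every cell. *Bmp15*, an oocyte growth factor of the TGF-beta family (chrX:6314107-6320721 on GRCm38), had 238, 885 and 6473 CPM in the lowest, median and highest oocyte and no reads in the 16 somatic cells. Pooled over cells this was 1842 CPM, at least 1891-fold higher with the somatic cells set at a floor of 3 counts over the group. *Padi6* (chr4:140727355-140742643), needed for the cytoplasmic lattices of the egg, had 36221, 110228 and 176678 CPM in oocytes, against 0, 288 and 1803 CPM in somatic cells. All oocytes lay above all somatic cells, although 14 of the 16 somatic cells had reads of it, and the pooled levels of 114337 and 492 CPM differed 232-fold (221 to 245). *Padi6* alone took 11.4% of the oocyte counts. With totals taken without it, an alternative added after seeing the data, 810 genes were at least 4-fold higher in oocytes and 1358 lower, against 761 and 1416 with it.

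The somatic markers *Inha* and *Amh* showed the reverse, whereas *Foxl2*, *Wnt6*, *Kitl* and *Krt18*, described further below, overlapped between the groups. *Inha*, the inhibin alpha subunit (chr1:75507077-75510366), had 0, 0 and 11.3 CPM in oocytes and 8866, 20333 and 28901 CPM in somatic cells. Reads of it occurred in 2 of 15 oocytes, none of which came near a somatic cell, and the pooled level was 12723-fold lower in oocytes (5452 to 39185). *Amh*, anti-Müllerian hormone (chr10:80805243-80807648), had no reads in the oocytes and 64.1, 1313 and 5729 CPM in the somatic cells, a level at least 1566-fold lower in oocytes. The authors had removed oocytes with high scores over a list of somatic genes and somatic cells with high scores over a list of oocyte genes. *Bmp15*, *Inha* and *Amh* are on those lists, so these markers had helped to choose the cells. The same holds for *Sohlh1*, *Dazl*, *Pou5f1*, *Lhx8*, *Amhr2*, *Foxl2*, *Kitl*, *Wnt6*, *Fshr*, *Star*, *Cyp19a1* and *Krt8*, described below. *Padi6* was on neither. Of the 6 compared genes of the oocyte list all were at least 4-fold higher in oocytes, and of the 14 of the somatic list 13 were at least 4-fold lower and *Aldh1a2*, an enzyme that makes retinoic acid, had a log2 ratio of −1.79.

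**Figure D2:**
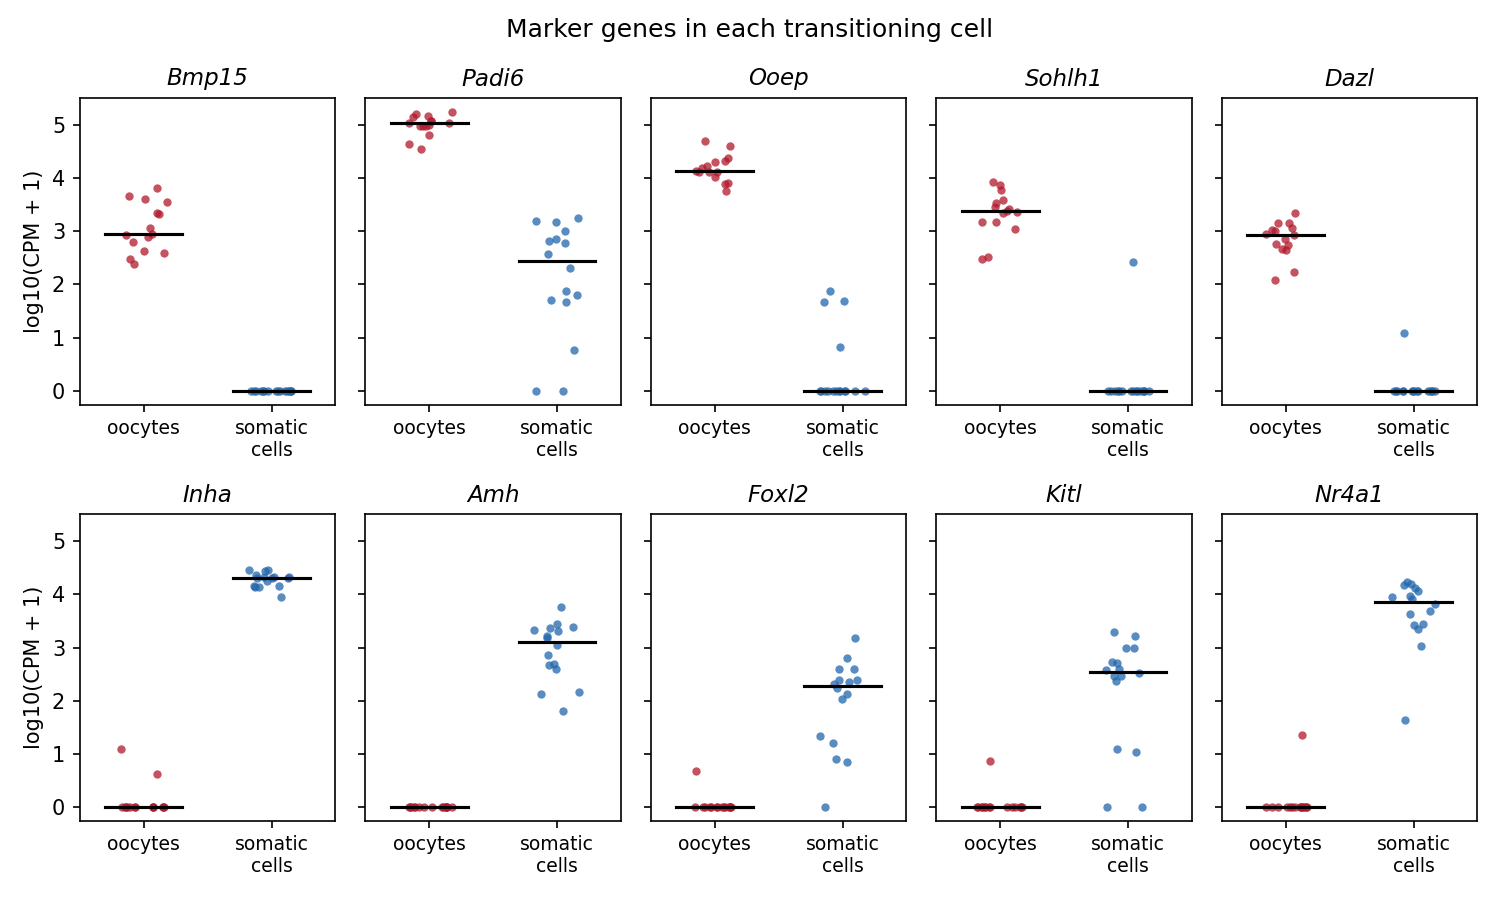
Level of 10 genes in each cell as log10(CPM + 1), oocytes (red) left and somatic cells (blue) right in each panel, with the median as a black line. *Padi6* was read in 14 somatic cells at up to 1803 CPM, below the lowest oocyte at 36221 CPM.

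Promoter sequence is shown for 4 genes that marked the cell types without overlap, *Padi6*, *Bmp15* and *Sohlh1* for oocytes and *Amhr2* for somatic cells. All but *Padi6* are on the lists by which the authors had removed cells. The 250 bases before the RefSeq start on GRCm38.p6 are given 5′ to 3′ on the gene's strand, for *Padi6* at chr4:140742644-140742893, minus strand, *Bmp15* at chrX:6320725-6320974, minus strand, *Sohlh1* at chr2:25847249-25847498, minus strand, and *Amhr2* at chr15:102445117-102445366, plus strand. Capitals mark the motifs searched, on both strands: the E-box CANNTG, the letters bound by basic helix-loop-helix factors, the site AAGGTCA of SF1, the site TAATTA of NOBOX, the cyclic AMP element TGACGTCA, a GATA site AGATAA and a forkhead site TAAACA.
Padi6: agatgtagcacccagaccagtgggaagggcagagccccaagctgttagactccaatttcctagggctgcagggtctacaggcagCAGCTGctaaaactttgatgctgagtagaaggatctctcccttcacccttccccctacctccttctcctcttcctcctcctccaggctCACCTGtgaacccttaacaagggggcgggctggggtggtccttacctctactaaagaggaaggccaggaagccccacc
Bmp15: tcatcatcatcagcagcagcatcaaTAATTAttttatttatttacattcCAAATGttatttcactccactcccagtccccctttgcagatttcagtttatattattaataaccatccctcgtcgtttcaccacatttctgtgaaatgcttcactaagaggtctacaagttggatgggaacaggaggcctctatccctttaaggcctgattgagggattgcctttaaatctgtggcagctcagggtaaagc
Sohlh1: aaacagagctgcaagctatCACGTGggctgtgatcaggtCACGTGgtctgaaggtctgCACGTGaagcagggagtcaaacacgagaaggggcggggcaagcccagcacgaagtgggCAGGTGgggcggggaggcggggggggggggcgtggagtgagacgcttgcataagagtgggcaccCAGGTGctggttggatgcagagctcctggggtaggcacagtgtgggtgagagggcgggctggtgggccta
Amhr2: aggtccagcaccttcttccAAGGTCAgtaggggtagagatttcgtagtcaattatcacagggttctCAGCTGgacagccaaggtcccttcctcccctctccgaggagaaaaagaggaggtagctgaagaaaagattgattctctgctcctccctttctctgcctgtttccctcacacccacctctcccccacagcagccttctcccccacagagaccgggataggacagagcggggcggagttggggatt
The *Sohlh1* promoter held 5 E-boxes, *Padi6* 2, and *Bmp15* and *Amhr2* 1 each. *Bmp15* also held 1 TAATTA and *Amhr2* 1 AAGGTCA. The same 250 bases were searched for other genes without overlap. Those of *Inha*, *Astl*, *Gja4*, *Col18a1* and *Nr4a1* held none of the motifs, so the promoters shown do not stand for marker genes in general. In windows of 300 bases, which run to 50 bases past the start, CANNTG occurred in 70.8% of 523 promoters of genes higher in oocytes and 67.0% of 872 promoters of genes lower in oocytes, against 65.5% of the 2481 promoters of all compared genes and 72.2% of all 27025 promoters. CACCTG or its reverse CAGGTG, an E-box with fixed inner letters, occurred in 21.99, 16.3, 17.98 and 20.0% of the same sets in that order. AAGGTCA occurred in 3.82, 3.56, 3.23 and 4.66%, and TAATTA in 2.68, 1.61, 2.06 and 5.31%. AGATAA occurred in 8.80, 7.45, 7.09 and 11.4%, TAAACA in 10.3, 9.17, 9.31 and 13.4% and TGACGTCA in 2.87, 2.18, 2.98 and 1.88%. In these windows the share of the higher set thus lay above that of the compared genes and below that of all promoters for 5 of these motifs, the other way round for TGACGTCA, and above both for CACCTG. In the 150 bases before the start, the higher set lay below the compared genes for AAGGTCA (1.34 and 1.41%) and TAATTA (0.765 and 0.806%). For CANNTG it lay above all promoters there (47.99 and 47.37%), and the other motifs kept their order. A match describes the letters and is not a site. The RefSeq table matched 524 of the 761 higher and 873 of the 1416 lower genes defined next, some of which share a promoter.

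Values on this plate were listed for 15866 genes, of which 7858 had reads. A gene was compared where its pooled level was at least 10 CPM with reads in at least 3 cells of a type, which 3737 genes were. At least 4-fold higher in oocytes were 761 genes (20.4% of those compared), at least 4-fold lower were 1416 (37.9%), and 1560 lay within 4-fold. The median log2 ratio of all compared genes was −0.82, with oocytes below somatic cells. The 10 most abundant genes held 29.8% of the counts in oocytes and 14.1% in somatic cells, and the split depended on the scaling. Higher genes were 34.96% of those past 4-fold with totals as the scale, 47.5% with TMM factors and 50.8% with median-of-ratios factors, which moved the ratio of each gene up by 0.76 and 0.97 and left the median of the genes then compared at 0.07 and 0.32. Both shift all genes upwards alike, so the 761 higher genes remained past 4-fold under each.

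The genes at least 4-fold higher took 59.6% of the oocyte counts and 1.71% of the somatic counts, and those lower took 3.22% of the oocyte and 57.0% of the somatic counts. No reads in any somatic cell were found for 406 of the higher genes, and none in any oocyte for 433 of the lower genes, so their ratios are bounds. All 15 oocytes lay above all 16 somatic cells for 100 genes (2.68%) and below them for 57 (1.53%). With the oocytes of the first plate code alone, a choice made after seeing the data, 622 genes were higher and 1527 lower. Of these, 584 and 1378 were among the genes called with all oocytes. Without the 3 oocytes under 50000 counts the counts were 752 and 1417.

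**Figure D3:**
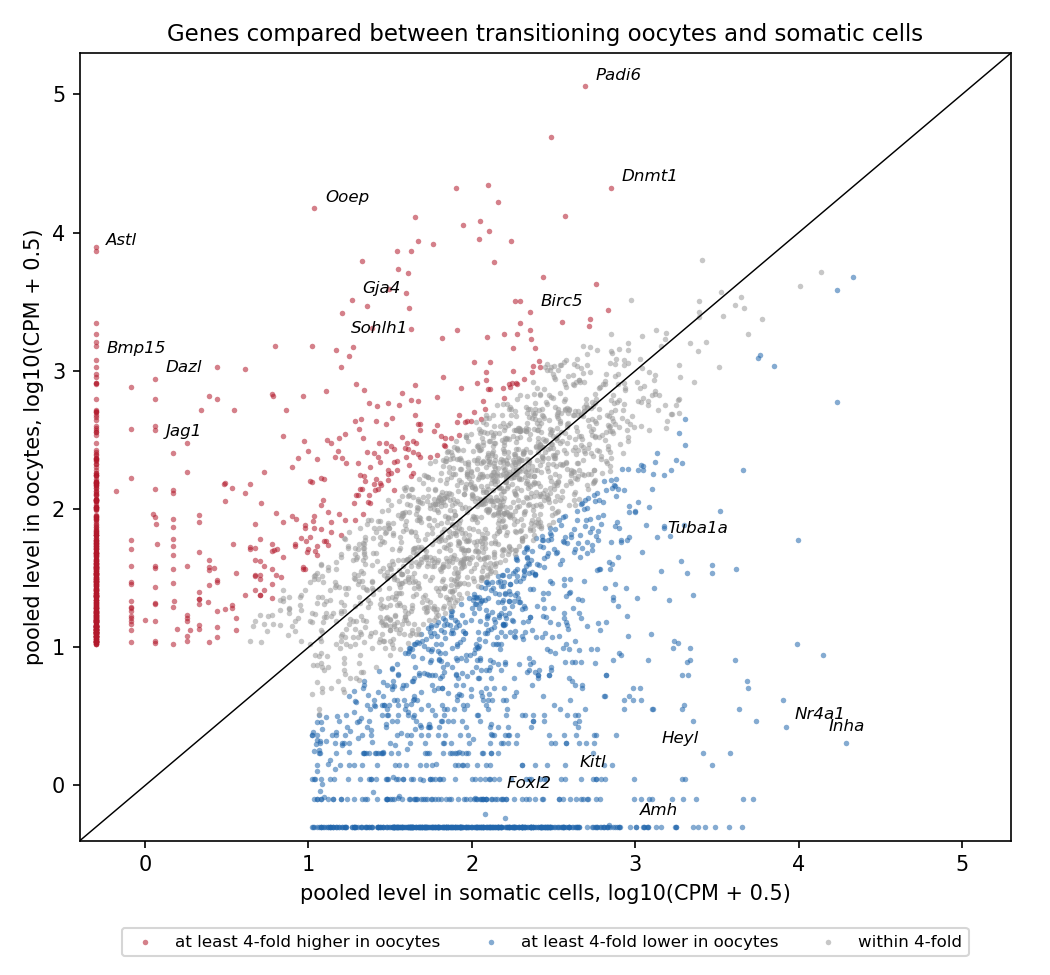
Pooled level of 3737 genes in oocytes (vertical) and somatic cells (horizontal) as log10(CPM + 0.5), coloured by at least 4-fold higher in oocytes (red, 761 genes), at least 4-fold lower (blue, 1416) or within 4-fold (grey, 1560). The line marks equal levels, and points on the left and lower edges are genes without reads in somatic cells or in oocytes.

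Many well-known genes had no value on this plate and were not analysed here, among them *Gdf9*, *Zp1*, *Zp2*, *Zp3*, *Ddx4*, *Figla*, *Nobox*, *Kit*, *Fst*, *Inhba* and *Gja1*. Of protein-coding genes of GENCODE M21, 76.1% of those with 1 annotated transcript had a value, and 25.4% of those with 8 or more. The lists below were therefore read in part, with the number of genes listed, with values and compared beside them. A list's median stands beside the −0.82 of all genes (−1.22 within the first code) and is no test, and members without reads in a type enter it at their bound. The lists with at least 3 compared members are plotted together.

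**Figure D4:**
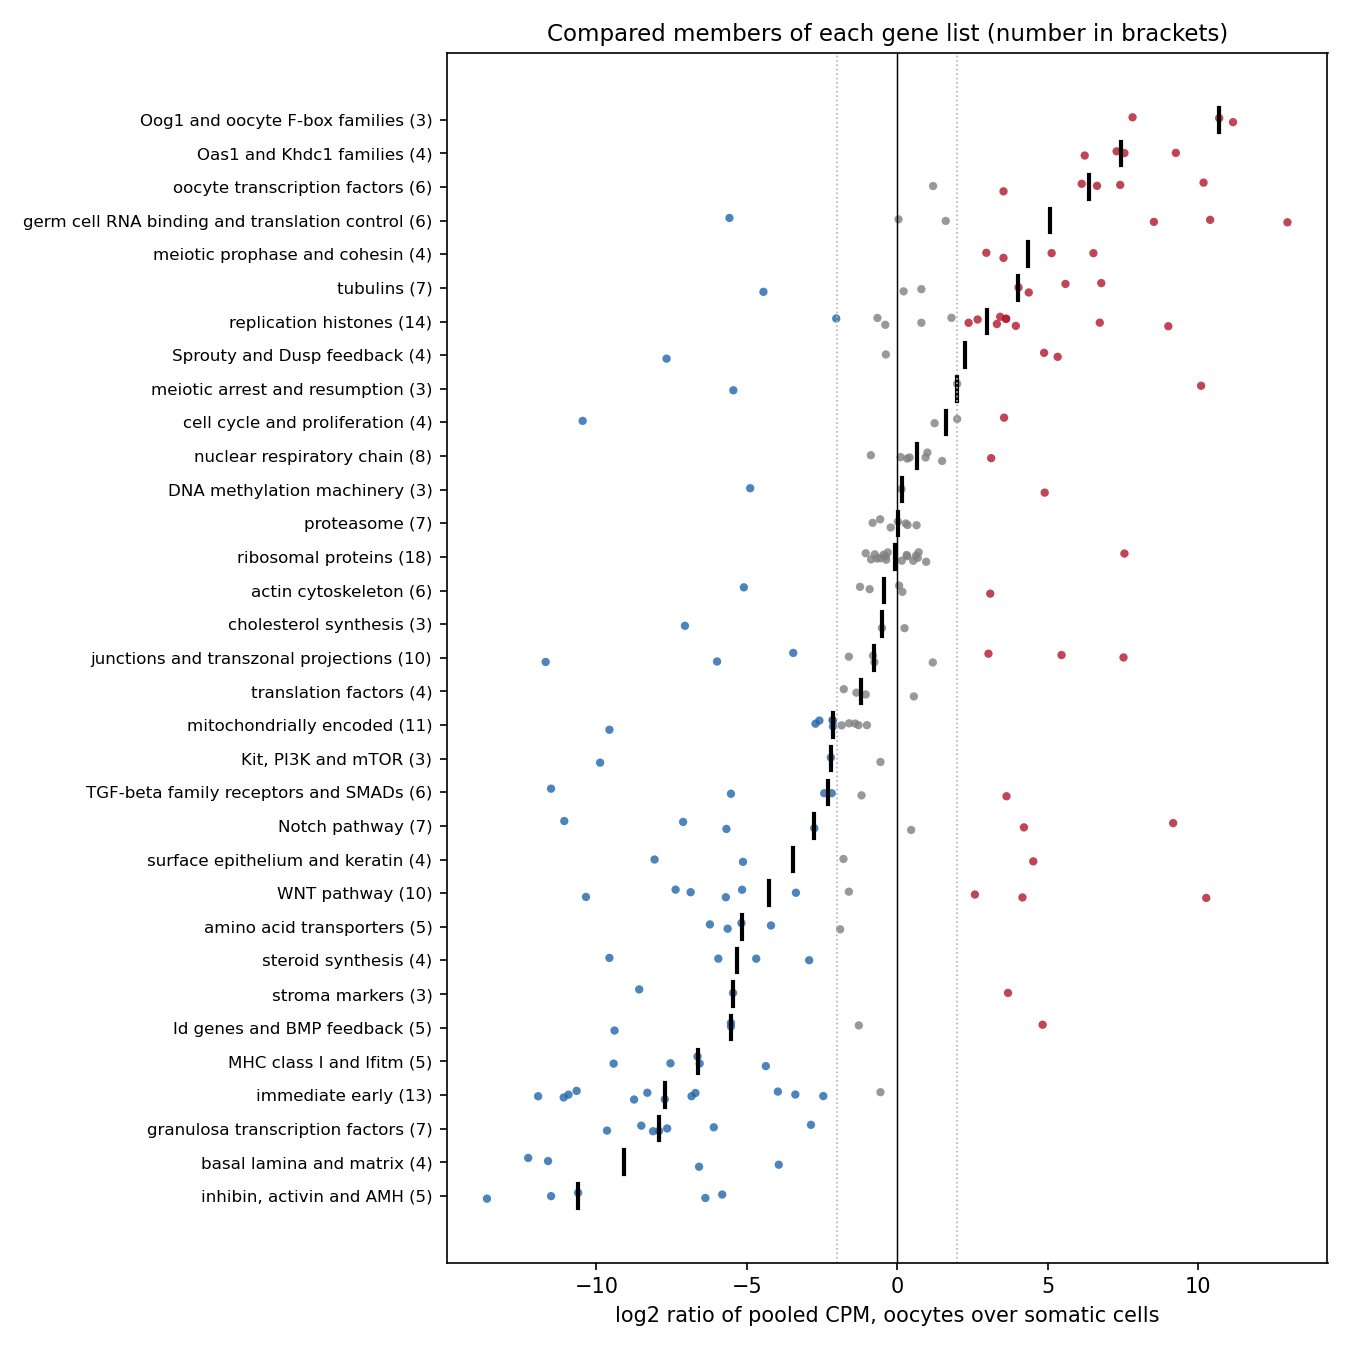
Log2 ratio of pooled CPM, oocytes over somatic cells, of each compared gene of the lists with at least 3 compared members, with the list's median as a black bar and the number of genes in brackets. Red genes are at least 4-fold higher in oocytes, blue ones at least 4-fold lower, grey ones within 4-fold, and dotted lines mark 4-fold. The list medians run between −10.61 for inhibin, activin and AMH and 10.70 for the oocyte F-box families.

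Oocytes carried the products of the growth phase that were measured. Of 11 genes for growth factors and the egg coat 2 had values, *Bmp15* and *Astl*, the egg protease ovastacin that cleaves the egg coat after fertilisation. *Astl* had 263, 7127 and 12130.4 CPM in oocytes and no reads in somatic cells, so the groups did not overlap and oocytes were at least 7538-fold higher. Of 8 genes of the subcortical maternal complex and lattices 2 had values, *Padi6* and *Ooep*, a core member of the complex (chr9:78376109-78378725). *Ooep* had 5815, 13617 and 49639 CPM in oocytes, against 0, 0 and 73.1 CPM in somatic cells, of which 4 had reads. No somatic cell came near the lowest oocyte, and the pooled levels differed 1449-fold (1026 to 2119).

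All 4 compared genes of the *Oas1* and *Khdc1* families (11 listed, 6 with values) were at least 4-fold higher, with a median log2 ratio of 7.42, or 7.66 within the first code. *Oas1d*, a member of the oligoadenylate synthetase family expressed in mouse oocytes, had 2289, 4865 and 6976 CPM in oocytes and 0, 0 and 339.5 CPM in somatic cells, without overlap. *Khdc1b*, a KH domain gene of oocytes and early embryos, had 548, 5074 and 16568 CPM in oocytes, against 0, 0 and 585 CPM in somatic cells. Its lowest oocyte, of the fourth code, lay below the highest somatic cell. The oocyte F-box genes *Fbxw18* and *Fbxw24* and the leucine-rich repeat gene *Oog3* had no reads in somatic cells and pooled levels of 1623, 2227 and 221 CPM in oocytes. These families have near-identical copies, and the counting could have split reads between them, so values of single members are uncertain.

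Of 18 oocyte transcription factors 8 had values and 6 were compared, 5 of them at least 4-fold higher, with a median of 6.38 (6.21 within the first code). *Sohlh1*, a basic helix-loop-helix factor of early oocyte differentiation, had 299.7, 2403 and 8480.2 CPM in oocytes and 0, 0 and 266 CPM in somatic cells, where 1 cell had reads. Oocytes lay above that cell, and the pooled difference was 169.6-fold (128 to 230.2). Its partner *Sohlh2* had pooled levels of 377 and 0.325 CPM in oocytes and somatic cells, *Pou5f1*, the pluripotency factor OCT4, 1421 and 14.3 CPM, and *Lhx8*, a homeobox factor of primordial follicle oocytes, 1070.5 and 15.3 CPM. *Taf4b*, a subunit of the general transcription factor TFIID needed for oocyte development, stayed within 4-fold at 179 and 78.6 CPM.

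RNA-binding proteins of germ cells held some of the largest ratios. *Cpeb1*, which controls the polyadenylation and translation of stored RNA, ranked highest among the genes with at least 50 CPM and reads in at least 50% of the oocytes, clone names aside, at 130.5, 9259 and 15698 CPM in oocytes and no reads in somatic cells. *Dazl*, a germ cell RNA-binding protein, had 119.9, 867 and 2171 CPM in oocytes and reads in 1 somatic cell at 11.1 CPM. *Patl2*, a repressor of translation in the oocyte, had reads in 12 of 15 oocytes and in none of the somatic cells. The list as a whole (21 genes, 6 with values and compared) had 3 genes higher, 2 within 4-fold and 1 lower, *Msi1*, a Musashi family regulator of translation, at 0.609 and 29.2 CPM. *Elavl2*, another RNA-binding protein and among the 30 ranked highest, had 130.5, 1117 and 1759.8 CPM in oocytes and 33.95 CPM in its highest somatic cell, without overlap.

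Genes of meiosis and of transposon defence followed. *Mos*, the kinase that activates MAP kinase in the maturing egg, had 248, 771 and 1986 CPM in oocytes and none in somatic cells. Its list, meiotic arrest and resumption (20 genes, 4 with values, 3 compared), also held the cyclin *Ccnb2*, within 4-fold, and *Nppc*, the C-type natriuretic peptide with which granulosa cells hold the oocyte in arrest, at least 4-fold lower. *Nppc* had 0, 0 and 36.1 CPM in oocytes and 0, 0 and 903 CPM in somatic cells, with reads in 3 oocytes and 7 somatic cells. *Mov10l1*, a helicase of the piRNA pathway, had 448, 1511 and 4572 CPM in oocytes, again with no somatic reads. The meiotic prophase list (20 genes, 9 with values) had 4 compared genes, all at least 4-fold higher at low levels: *Sycp2* of the synaptonemal complex 89.3 CPM, *Tex12* of its central element 34.1 CPM, *Msh5* of crossover repair 32.9 CPM and *Hormad1* of the chromosome axis 11.3 CPM in pooled oocytes. *Hormad1* was carried by 7 oocytes and *Msh5* also by 1 somatic cell at 49.9 CPM. *Gpat2*, an acyltransferase of germ cells that also serves the piRNA pathway, had no somatic reads and 58.5, 391 and 1627 CPM in oocytes.

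Further genes of the 30 ranked highest in oocytes belonged to signalling, the cytoskeleton and the spindle. *Plcg2*, a phospholipase C, and *Vil1*, villin of actin-bundled microvilli, had no reads in somatic cells and 0, 854 and 3346 CPM and 184, 652 and 3553 CPM in oocytes, where 1 oocyte lacked *Plcg2*. *Neb*, the giant muscle protein nebulin, had 115, 633 and 1826 CPM in oocytes and 7.68 CPM in the single somatic cell with reads, without overlap. *Gtse1*, a microtubule-binding protein of dividing cells, *Dnah8*, a dynein heavy chain of sperm tails, and *Adad2*, a germ cell gene with an adenosine deaminase domain, were read in all oocytes and in no somatic cell, at pooled levels of 523, 442 and 477 CPM.

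*Dnmt1*, the maintenance DNA methyltransferase, was common in oocytes but not absent from somatic cells. It had 1459, 21503 and 73478 CPM in oocytes and 0, 628 and 2682 CPM in somatic cells, with reads in 12 of the somatic cells. The highest somatic cell lay above the lowest oocyte, and the pooled difference was 29.8-fold (28.6 to 31.1). *Tet1*, which oxidises methylated cytosine, went the other way with 13.1 CPM in oocytes and 389.6 CPM in somatic cells. The third compared gene of the DNA methylation list (14 genes, 3 with values), the histone demethylase *Kdm1a*, lay within 4-fold at 0.14. Of the tubulins (18 listed, 10 with values, 7 compared) 4 were at least 4-fold higher and 1 lower. The beta tubulin *Tubb2a* had 1316, 3479 and 7457 CPM in oocytes and 0, 39.1 and 1021 CPM in somatic cells without overlap, and the alpha tubulin *Tuba1a* had 0, 8.19 and 464 CPM, against 0, 557 and 7294 CPM in somatic cells. *Tuba1a* had no reads in 6 oocytes and in 5 somatic cells, and its groups overlapped, with 3 oocytes above the lowest somatic cell that had reads.

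Genes that carry names of genomic clones in place of gene symbols were described as a group. They numbered 4851 with values and 469 compared, of which 92 were at least 4-fold higher and 252 lower in oocytes. Of all 3737 compared genes 20.4% were higher and 37.9% lower, so fewer higher than lower genes were not particular to these entries. The clone-named entries took 26.4% of the oocyte counts (10.3 to 45.9% per oocyte), against 5.36% of the somatic counts (3.57 to 7.04% per cell). Of the 10 most abundant oocyte entries, 7 were of this kind. The lowest oocyte lay above the highest somatic cell for this share.

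Of the signals known to pass between oocyte and granulosa cells, Notch genes were found on either side. *Jag1*, a Notch ligand, had 66.9, 378 and 796 CPM in oocytes and at most 4.93 CPM in the 2 somatic cells with reads. The Notch targets *Heyl* and *Hey2* were lower in oocytes, *Heyl* with 0, 0 and 4.77 CPM in oocytes and 35.3, 2124 and 7417 CPM in somatic cells, without overlap. Pooled, *Jag1* was 576-fold higher in oocytes (159 to 4764, from 2 somatic counts) and *Heyl* 2143-fold lower (837 to 7868). Of 19 Notch pathway genes 13 had values and 7 were compared: *Jag1* and the ligand *Dll3* were higher, *Heyl*, *Hey2*, *Hes1* and the nuclear partner *Rbpj* lower, and *Rfng*, which adds sugars to Notch, lay within 4-fold at 251 and 183 CPM. The list's median was −2.76, or −2.81 within the first code.

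*Kitl*, the ligand of the oocyte receptor Kit, was read in 1 oocyte at 6.19 CPM and in 14 somatic cells, with 0, 349 and 1956 CPM over the somatic cells. The groups overlapped only through the 2 somatic cells without reads. *Igf1r*, the receptor of insulin-like growth factor 1, was read in all cells, at 73.1, 183 and 559 CPM in oocytes and 157, 979 and 2653 CPM in somatic cells, and the ranges overlapped. Its log2 ratio of −2.21 was within 4-fold under TMM (−1.45) and median-of-ratios factors (−1.25) and −2.97 within the first code. The ligand *Igf1* itself was read in 1 oocyte at 3.78 CPM and in 14 somatic cells, with a median of 1378 CPM over all 16. *Rheb*, the GTPase that activates mTOR, lay within 4-fold at 364 and 536 CPM. With *Kitl* and *Igf1r* it was one of the 3 genes with values, all compared, of 21 listed for Kit, PI3K and mTOR.

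In the TGF-beta family the receptor *Amhr2* of anti-Müllerian hormone had 1484, 2687 and 4518 CPM in somatic cells and no reads in oocytes, at least 2908-fold lower. Of the 24 receptors and SMADs 11 had values and 6 were compared, with 1 higher, the type I activin receptor *Acvr1b* (80.4 and 6.49 CPM), and 4 lower. *Smad2*, which carries activin signals to the nucleus, was within 4-fold at 265 and 604 CPM. The pseudoreceptor *Bambi* had 0, 19.8 and 59.9 CPM in oocytes and 0, 986 and 2431 CPM in somatic cells. *Id2*, a target of BMP signalling, was read in 12 oocytes at up to 124 CPM and in no somatic cell, and *Id1* had 56.4 and 137.3 CPM.

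WNT pathway genes (27 listed, 18 with values, 10 compared) had 3 higher, 6 lower and 1 within 4-fold, with a median of −4.27. The ligand *Wnt6* had no reads in oocytes and 0, 814 and 2689.8 CPM in somatic cells, 14 of which had reads. *Rspo2*, a secreted amplifier of WNT signals, had 130.5, 1220.2 and 2188 CPM in oocytes and no reads in somatic cells. These groups did not overlap, whereas for *Wnt6* the 2 somatic cells without reads stood level with the oocytes. *Rnf43*, the ubiquitin ligase that clears WNT receptors and that R-spondins hold back, was read in 3 oocytes at up to 30.0 CPM and in 4 somatic cells at up to 722 CPM. The transcription factor *Lef1* and the ligand *Wnt9a* were the other higher genes, with log2 ratios of 4.16 and 2.58. Within the first code *Wnt9a* was within 4-fold, at 1.85. *Ctnnb1*, beta-catenin, lay within 4-fold at 233 CPM in oocytes and 711 CPM in somatic cells, with reads in all but 2 cells.

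Of 20 junction genes 11 had values and 10 were compared, with 3 higher, 3 lower and 4 within 4-fold in oocytes. Their median of −0.79 moved to −0.02 with TMM and turned to 0.18 with median-of-ratios factors. *Gja4*, the oocyte connexin 37, had 2010.1, 3307 and 5834 CPM in oocytes and reads in 1 somatic cell at 448 CPM. All oocytes stayed above that cell, and the pooled difference was 184-fold (141.1 to 244). *Cdh2*, N-cadherin, had 0, 0 and 51.5 CPM in oocytes and 48.1, 547 and 1385 CPM in somatic cells, with an overlap at the lowest somatic cell. *Cdh3*, P-cadherin, chosen by rank and not on the list, had 100.3, 696 and 2274 CPM in oocytes and 4.61 CPM in 1 somatic cell. *Jam2*, a tight junction adhesion molecule, was read in 14 somatic cells at a median of 1389 CPM and in 1 oocyte. *Myo10*, a motor of the projections that link granulosa cells to the oocyte, was read in all cells of both types at 1385 and 2434 CPM, and *Daam1*, a formin that builds actin filaments, was at 271 CPM in oocytes and 33.1 CPM in somatic cells.

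On the somatic side the inhibin, activin and AMH list (8 genes, 5 with values and compared) was lower in oocytes for every compared gene, with a median of −10.61 (−9.72 within the first code). Beside *Inha*, *Amh* and *Amhr2* it held *Inhbb*, a subunit of inhibin B, and *Fshr*, the receptor of follicle-stimulating hormone, which had reads in 3 and 5 somatic cells and in no oocyte. Granulosa transcription factors (18 genes, 10 with values, 7 compared) were likewise all lower, with a median of −7.92 (−7.03 within the first code). *Nr5a1*, the steroidogenic factor SF1, had 0, 0 and 43.6 CPM in oocytes and 105.97, 671 and 2248 CPM in somatic cells, without overlap. *Esr2*, estrogen receptor beta, had 0, 0 and 71.1 CPM in oocytes and 41.3, 1663 and 3842 CPM in somatic cells, and its highest oocyte lay above its lowest somatic cell. *Foxl2*, which keeps granulosa identity, was read in 1 oocyte at 3.78 CPM and in 15 somatic cells (0, 189 and 1509 CPM over all 16), so that 1 somatic cell stood at 0 with the oocytes.

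Of 12 steroid synthesis genes 6 had values and 4 were compared, all lower in oocytes. *Hsd17b1*, which makes estradiol from estrone, was read in no oocyte and in 15 somatic cells (0, 662 and 2010.1 CPM over all 16). *Cyp19a1*, aromatase, and *Star*, which carries cholesterol into mitochondria, were each read in 2 oocytes, at up to 20.9 and 20.7 CPM, and in 5 somatic cells, at up to 377 and 244 CPM. All 4 compared genes of basal lamina and matrix (18 listed, 5 with values) were lower in oocytes too. *Col18a1*, a collagen of basement membranes, had no reads in oocytes and 984, 3814 and 9996 CPM in somatic cells, and *Sparc*, a matrix protein that binds collagen, had 0, 0 and 11.3 CPM in oocytes and 809, 4289 and 5914 CPM in somatic cells. *Lama1*, a laminin chain, had 0, 3.5 and 103.3 CPM, against 59.2, 2158 and 5835 CPM in somatic cells, with an overlap at the lowest somatic cell.

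Other genes ranked lowest in oocytes covered secreted proteins, lipid enzymes and the cell cycle. *Thbs1*, thrombospondin 1, had the lowest ratio, with reads in 1 oocyte at 3.78 CPM and 7.06, 3279 and 15406 CPM in somatic cells. *Aldh1a1*, an enzyme that makes retinoic acid, was likewise read in 1 oocyte, at 3.09 CPM, and had 141.7, 1832 and 6759 CPM in somatic cells. *Clu*, the chaperone clusterin, and *Erbb2*, a receptor tyrosine kinase, had no reads in oocytes. *Clu* had 1628, 3172 and 6814 CPM and *Erbb2* 999.6, 2717 and 5351 CPM in somatic cells, so every somatic cell carried both. *Ccnd2*, the cyclin D2 of granulosa proliferation, had 0, 0 and 14.0 CPM in oocytes and 1759.8, 3899 and 7809 CPM in somatic cells, without overlap. *Scd2*, a fatty acid desaturase, and *Akr1cl*, an aldo-keto reductase, were read in every somatic cell, at medians of 5262 and 13183 CPM, and at no more than 39.5 and 86.9 CPM in an oocyte.

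Immediate early genes, which cells transcribe within minutes of a stimulus, were compared for 13 of 23 genes (15 with values), of which 12 were at least 4-fold lower in oocytes (median −7.73, −6.63 within the first code). Their summed level was 42.9 to 204 CPM in first-code oocytes and 0 to 479.6 CPM over all oocytes, against 11147, 26264 and 40227 CPM in the lowest, median and highest somatic cell. *Jun*, a subunit of the AP-1 factor, had 0, 0 and 62.0 CPM in oocytes and 649.9, 8567 and 19642 CPM in somatic cells, and *Nr4a1*, an orphan nuclear receptor, 0, 0 and 21.7 CPM in oocytes and 42.4, 7409 and 17036 CPM in somatic cells. The groups did not overlap for either gene. Somatic cell 38 had the lowest *Nr4a1* and the lowest summed level, and also the highest *Amh* at 5729 CPM. *Gadd45b*, a stress gene, was within 4-fold at 29.3 and 43.2 CPM.

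Antigen presentation genes were on the somatic side as well, with all 5 compared of 13 listed at least 4-fold lower in oocytes and a median of −6.64. *B2m*, the light chain of MHC class I, had 0, 71.2 and 119 CPM in oocytes and 572, 1525 and 2451 CPM in somatic cells, without overlap. *Ifitm2*, an interferon-induced membrane protein, had 0, 0 and 13.1 CPM in oocytes and 169, 415 and 804 CPM in somatic cells, again without overlap. Amino acid transporters were lower for 4 of 5 compared (15 listed, 7 with values), and *Slc38a2*, a sodium-coupled transporter of neutral amino acids, had 0, 14.4 and 171 CPM in oocytes and 174, 1016 and 2832 CPM in somatic cells. Its highest oocyte lay just below its lowest somatic cell. *Slc3a2*, the shared heavy chain of several transporters, was within 4-fold at 493 and 1841 CPM.

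Shorter lists had fewer compared genes. Of 18 Hippo pathway genes 4 had values and 2 were compared, the targets *Cyr61* and *Ctgf*, both secreted matrix proteins, which were lower in oocytes, at 0 and 0 CPM, against 1343 and 35.7 CPM in somatic cells. Of 11 genes of Sprouty and Dusp feedback 8 had values and 4 were compared. *Spry1*, an inhibitor of receptor tyrosine kinase signals, had 39.3 CPM in oocytes and 0 CPM in somatic cells, while *Dusp6*, a phosphatase of ERK, had 0 and 186 CPM. The 4 compared genes together summed to 0 CPM in the median somatic cell and 1305 CPM in the highest, so few somatic cells made up the pooled level. Of 22 genes of glucose transport and glycolysis 5 had values, and the 2 compared, the glycolytic enzyme *Pgam1* and the lactate carrier *Slc16a1*, were lower, at log2 ratios of −4.71 and −2.31. Among actin genes (26 listed, 9 with values, 6 compared), *Tmsb10*, which binds actin monomers, was higher by 3.09 and *Tagln2*, a transgelin, lower at −5.10, while 4 others lay within 4-fold, *Cfl1*, cofilin, at 0.17. Within the first code *Tmsb10* was within 4-fold, at 1.98.

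Ribosomal protein genes had similar pooled levels in both cell types, but the oocytes differed among themselves by plate code. Of 18 compared ribosomal protein genes 17 were within 4-fold, with a median of −0.09, which moved to positive values with TMM (0.67) and median-of-ratios factors (0.88). The exception, *Rpl10l*, a retrotransposed copy of *Rpl10*, had 183 CPM in oocytes and no somatic reads. Within the codes the median of the 18 genes against the same somatic cells was −1.20 for the first, −0.61 for the second, 1.30 for the third and 1.08 for the fourth. The median of all compared genes also rose over the codes, at −1.22, −1.06, −0.72 and −0.64 in the same order. Code medians of this and the other lists stand beside these values. The summed level per cell was 4093 to 12072 CPM in oocytes of the first code, 4717 to 11882 CPM of the second, 33896 to 71134 CPM of the third and 18528 to 61029.6 CPM of the fourth, against 14227 to 24228 CPM in somatic cells. The 8 oocytes of the first and the second code thus all lay below the lowest somatic cell, and the 7 of the third and the fourth all above the other oocytes.

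The summed levels of some further lists were divided in the same way, and those of others were not. Nuclear genes of the respiratory chain (36 listed, 8 compared, of which *Ndufa1*, of complex I, was past 4-fold) had a median of 0.67 over all oocytes, but −0.29 in the first code and 1.89 in the fourth, and the proteasome genes (30 listed, 7 compared, all within 4-fold) 0.02 over all oocytes, −0.43 in the first and 0.71 in the fourth. Within the first code *Ndufa1* was within 4-fold too, at 1.80. The summed level of the respiratory chain genes was at most 2488 CPM in oocytes of the first and the second code and at least 3216 CPM in the others, and that of the proteasome genes at most 4329.7 and at least 5339.8 CPM. Single members went the other way: in the third code *Cox5a* and *Cox8a*, of cytochrome c oxidase, had 37.2 and 89.3 CPM pooled, against 506 and 188 CPM in the first. The lists of cell cycle and of actin genes were divided as well. Cell cycle genes summed to at most 4672 CPM in oocytes of the first and the second code and at least 4927 CPM in the others. For actin genes these levels were 2858 and 3308.5 CPM. Translation factors (29 listed, 4 with values and compared, all within 4-fold) had medians of −1.32, −1.28, −0.12 and −1.14 over the codes in order, and their summed level overlapped, with up to 3143 CPM in the first code and from 1881 CPM in the fourth. Heat shock genes (15 listed, 4 with values, 2 compared) had medians of −0.26, −0.01, −1.22 and 0.71. *Rps27*, a protein of the small ribosomal subunit, had 11.5 to 77.5 CPM in oocytes of the first and the second code, and 138.4 to 633 CPM in those of the third and the fourth. *Psma7*, a proteasome subunit, had 445 to 1038 CPM in the first and the second code and 1312 to 5388 CPM in the third and the fourth. Neither gene's ranges overlapped. Over all 3737 compared genes, every oocyte of the third and the fourth code lay above every other oocyte for 75 genes (2.01%) and below for 16 (0.428%), and 10 of the 75 were among the 18 ribosomal protein genes. The codes were paired in this way after their values were seen, and what the code stands for cannot be told apart from other differences between these oocytes.

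**Figure D5:**
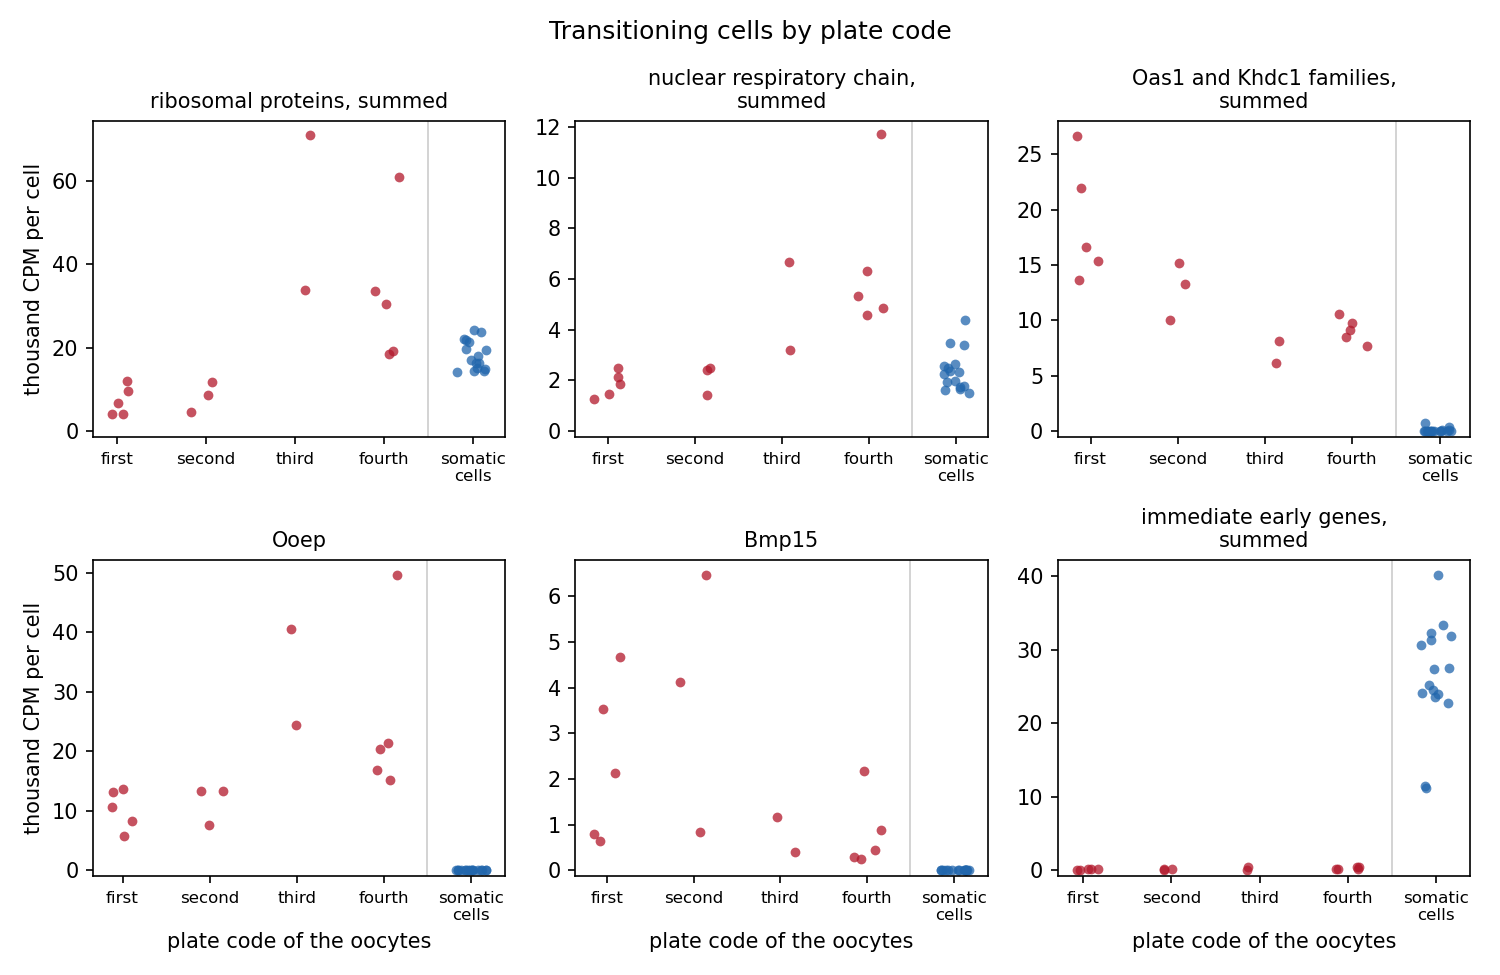
Level per cell in CPM, on a linear scale, of gene lists (summed over compared members) and genes, for oocytes of the 4 plate codes (red) and for somatic cells (blue), all of which carry the first code. Ribosomal protein genes summed to at most 11882 CPM in oocytes of the second code and at least 18528 CPM in those of the fourth, with the somatic cells between 14227 and 24228 CPM.

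Oocyte genes varied over the codes in either direction, and the pooled level of each gene named here was higher than that of the somatic cells in all 4 codes. *Ooep* had 5815 to 13617 CPM in oocytes of the first and the second code and 15239 to 49639 CPM in those of the third and the fourth, without overlap, and *Birc5*, survivin of the chromosomal passenger complex, and *Sohlh1* were also higher in the third and the fourth, with pooled log2 differences of 1.17 and 1.47. *Khdc1b* ran the other way, at 5074 to 16568 CPM in the first and the second code and 548 to 3710.3 CPM in the third and the fourth. *Bmp15* had a pooled log2 difference of −2.15 between the same codes, *Klf17*, a Krüppel-like factor of oocytes, −2.30, and *Dnmt1* −1.31. *Oas1d*, *Gja4* and *Jag1* differed little, by 0.25, 0.35 and −0.42. Against the somatic cells of the same code, oocytes of the first code held 637 to 4670.5 CPM of *Bmp15* and 94718 to 163940 CPM of *Padi6*.

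Mitochondrially encoded genes, which build the respiratory chain from inside the organelle, were lower in oocytes for 6 of 11 compared and within 4-fold for 5 (median −2.14, −1.37 with TMM and −1.17 with median-of-ratios factors, −1.49 within the first code). *mt-Co1*, a subunit of cytochrome c oxidase, had 1263, 2343 and 8877 CPM in oocytes and 9939, 17914 and 25501 CPM in somatic cells, without overlap. *mt-Nd5*, of complex I, had 351, 2367 and 15893 CPM in oocytes and 11148, 20896 and 34829 CPM in somatic cells, and its highest oocyte, of the first code, overlapped the somatic range. Both ratios were within 4-fold in the first code, at −1.75 and −1.54, and under the other factors.

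Among genes of cell division, *Birc5* had 1259, 2719 and 8741 CPM in oocytes and 0, 0 and 2530.2 CPM in somatic cells, of which 7 had reads. Only somatic cell 34 lay within the oocyte range. That cell also had the highest *Tuba1a* and the highest summed level of replication histones of the somatic cells, 5327 CPM against a somatic median of 107.3 CPM. Of 66 histone genes with values 14 were compared, of which 9 were at least 4-fold higher in oocytes and 1 lower, with a median of 2.99 over all oocytes, 1.59 in the first code and 3.61 in the fourth. Histone genes have near-identical copies, and few of these transcripts carry a poly(A) tail, so single values are uncertain. *Ccnb2*, cyclin B2, was read in all oocytes (309.9, 581 and 1363 CPM) and in 3 somatic cells at up to 1205 CPM, so that 2 somatic cells lay within the oocyte range.

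Cells of each type were compared with one another by the correlation of log2(CPM + 1) over the compared genes, as a description. Oocyte pairs had a Pearson r of 0.484 to 0.907 (median 0.750, over all pairs), somatic pairs 0.358 to 0.515 (median 0.429, 120 pairs) and pairs of an oocyte and a somatic cell 0.0865 to 0.249 (median 0.166, 240 pairs), so no cell was nearer to the other type. Among the oocytes, r was 0.715 to 0.907 within the first and the second code (28 pairs), 0.517 to 0.779 within the third and the fourth (21 pairs) and 0.484 to 0.816 between these groups of codes (56 pairs). The pairs share oocytes, and the shallowest oocyte is one of the third code. Genes with reads numbered 1028, 2752 and 3402 in the lowest, median and highest oocyte and 1388, 1820.5 and 2506 in somatic cells. With every cell thinned to 10000 counts, which 14 oocytes and all somatic cells reached, they numbered 1225, 1429 and 1671 in oocytes and 965, 1245.5 and 1610 in somatic cells, so that the ranges overlapped and the medians differed less.

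Markers of other ovarian cell types differed in their levels. None of the endothelial (5 with values), immune (8) or erythroid (6) markers was compared, and the erythroid markers had no reads in any cell. The summed level of the endothelial markers reached at most 41.3 CPM in an oocyte and 1288 CPM in a somatic cell, and that of the immune markers 50.2 and 149.8 CPM. Of 9 stroma markers with values 3 were compared, with a summed level over the list of up to 55.3 CPM in an oocyte and 2669 CPM in a somatic cell (median 50.1 CPM). *Col3a1*, a fibrillar collagen, was read in 6 of 16 somatic cells at up to 2029 CPM and in no oocyte. *Col5a1*, another collagen, was also lower in oocytes, at a log2 ratio of −5.46. The remaining compared stroma marker, *Mfap4*, went the other way and was higher in oocytes, at 3.68. Surface epithelium and keratin markers (10 listed, 9 with values, 4 compared) summed to 0, 207.3 and 2845 CPM in oocytes and 0, 359.7 and 3268 CPM in somatic cells. The keratins *Krt8* and *Krt18* were lower in oocytes, at log2 ratios of −5.13 and −8.07. *Krt8* was read in 4 oocytes and 7 somatic cells, *Krt18* in 1 oocyte and 3 somatic cells, and *Epcam*, an epithelial adhesion molecule, in 13 oocytes at up to 2532 CPM and in 1 somatic cell.

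Transitioning cells of both types also occurred on plate 1 (1 oocyte, 8 somatic cells) and plate 6 (3 oocytes, 1 somatic cell), which the comparison on plate 4 had not used. Ratios there were taken with no filter on level, and a gene without reads in a type entered at its bound at 3 counts, which could leave the direction undecided. Of 347 genes with a ratio there and at least 4-fold higher on plate 4, 296 were higher on plate 1 (221 past 4-fold), 49 lower (22 past 4-fold) and 2 undecided. Of 746 at least 4-fold lower on plate 4, 655 were lower on plate 1 (496 past 4-fold), 59 higher (31 past 4-fold) and 32 undecided. *Inha* had no reads in the plate 1 oocyte and 5286 CPM in its somatic cells, *Heyl* 0 and 224 CPM, and *Gja4* 777 CPM in the oocyte and 0 in the somatic cells. *Ooep*, in contrast, was at 2925 and 511 CPM with reads in 4 of the 8 somatic cells, and *Mos* at 301 and 231 CPM from 1 somatic cell. On plate 6, of 339 genes higher on plate 4, 229 were higher, 18 lower and 92 undecided, and of 279 lower ones 225 were lower, 22 higher and 32 undecided. There *Bmp15* was at 4524 CPM in oocytes and 23.5 CPM in the somatic cell, from 1 count. *Rpl8*, of the large ribosomal subunit, was lower in oocytes on both plates, with log2 ratios of −3.75 and −1.22, while on plate 4 it was −0.37 over all oocytes. Each of these plates has 1 cell of a type, so the values describe those libraries.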

How the data were processed

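The authors demultiplexed the reads and aligned them to GRCm38 with scripts on Terra. They deposited an estimated count per gene and cell, used here without rounding. The columns of 197 other cells were not used, and 3 more served only to find genes with values on every plate. The aligner and the counter are not given in the sources used here. The authors set a minimum of genes per cell and, with Seurat 4, removed oocytes that scored high for a module of somatic genes and somatic cells that scored high for a module of oocyte genes. The deposited cell metadata gave the plate, the numbers of genes and reads as counts, and the fraction of reads of each kind, shown here as percent.

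A blank entry was a gene without values on the plate and was not read as 0. Genes numbered 25149, of which 27 rows named by dates were left out, 11 of them with values on the plate. The values were scaled to CPM by each cell's total and, for a cell type, by the summed counts. Of the values above 0, 18.8% were not whole. Ratios of pooled CPM were log2, with exact binomial 95% intervals and a floor of 3 counts over a group at 0. Genes at or under the floor in both groups were given no ratio. Genes were named where they were markers, list members, named by the study, or among the 30 highest or 30 lowest ratios with at least 50 CPM and reads in at least 50% of the cells of the higher type. Members and lists were chosen with earlier results of these data known. With no animal or donor named for a cell, no test was run, and edgeR 4.0.16 and DESeq2 1.42.0 (R 4.3.3) gave TMM and median-of-ratios factors alone. The rest was done with scipy 1.17.1, pandas 2.3.3, numpy 2.4.6 and matplotlib 3.10.9 under Python 3.11.15. Tested on simulated data for this comparison (2280 genes), ratios set at 3 and −3 in 100 genes each came back with medians of 3.00 and −3.00. The simulated counts held counting error alone, and cells of a type differed only in depth. This checks the computation and not the spread of real cells. Promoters came from RefSeq (GRCm38.p6) and gene positions from GENCODE M21. Alternatives changed the scaling, filters, cells and plate.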

Additional observations from a re-analysis of the deposited data

How the results depend on the processing

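The number of genes at least 4-fold higher or lower in oocytes stayed within 1.5 times of the reported 761 and 1416 under scaling by TMM, by median-of-ratios, by the mean of single cells, by genes listed on every plate or without *Padi6*, without the deepest oocyte (803 and 1381), without the deepest somatic cell (772 and 1351), without cells under 50000 counts and with oocytes of the first plate code. It was 446 higher and 890 lower with cells thinned to 10000 counts, 1173 and 2388 without a filter beyond 1 read, and 405 and 608 with at least 50 CPM and reads in at least 50% of the cells, where by construction fewer or more genes were compared. Without genes at 0 in a type, 355 were higher, and with the 1 oocyte and 8 somatic cells of plate 1, 1671. The median number of genes per cell was 1429 in oocytes and 1245.5 in somatic cells after thinning, and 1975 and 1437.5 when a gene needed 5 counts. Among the genes that passed the same filter on plate 1, with reads in 1 cell of a type, 21 of the higher genes were at least 4-fold lower and 26 of the lower ones at least 4-fold higher.

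With the stricter filter the list medians were 0.49 for the WNT pathway and 4.52 for surface epithelium and keratin, both negative with the filter used above. The second value is the ratio of *Epcam* alone, the only member of that list to pass the stricter filter. The median of Sprouty and Dusp feedback was −0.38 without genes at 0 in a type and −2.47 on plate 1. Over the members compared on plate 1, in part other genes, the medians were 1.09 for Kit, PI3K and mTOR, 2.71 for amino acid transporters and −2.54 for replication histones, and the ratio of *Hist1h1c* was −0.69, each of the opposite sign to plate 4. For these changes the cause was not tested. The 121 ratios of named genes that were past 4-fold gave 1190 values under the alternatives on plate 4 other than the gene filters, which cannot change a ratio. Of these, 1168 remained past 4-fold in the same direction and 22 did not. On plate 1, 56 of 65 did and 9 did not. Bounds left 19 further values undecided, 8 of them on plate 1. The named genes include those ranked by these same ratios. TMM and median-of-ratios factors move all ratios up, so higher genes could not fail under them. The share that remained is therefore no test of the ratios. The first plate code and the totals without *Padi6* were chosen after seeing the data. No paired analysis was possible because no test was run and the numbers in the labels only name cells.

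The limits are those of the design. Each cell type is 1 sample of pooled animals, all somatic cells share 1 plate code, and many genes of the pathways had no values here. Blank entries, estimated counts and reads without molecular identifiers limit single genes, most of all in families with near-identical copies.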
